A study of Mus musculus with 6 samples.

Results

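The replication-dependent histone genes encode the core histones H2A, H2B, H3 and H4 and the linker histone H1 that package newly made DNA. They were taken as every gene whose name starts Hist1h, Hist2h, Hist3h or Hist4h, which gave 67 of the 41457 genes in the tables. By histone type these were 6 H1, 18 H2A, 18 H2B, 12 H3 and 13 H4 genes. By cluster, 54 lay in Hist1 on chromosome 13, 10 in Hist2 on chromosome 3, 2 in Hist3 on chromosome 11 and 1 in Hist4 on chromosome 6. Most are short: 61 of the 67 have a single exon. Cells transcribe these genes in S phase, and their mRNAs typically end in a conserved stem-loop bound by SLBP in place of a poly(A) tail. Many are copies that encode the same protein, so a short read often fits more than one of them. Some members are known to make longer, polyadenylated transcripts as well, as in differentiated cells.

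RNA came from thymocytes at the double-negative (DN) stage, early T cell precursors without CD4 or CD8 co-receptor, left after magnetic removal of cells bearing either one. In the 3 BirA libraries, labelled WT for genotype, the mice expressed the biotin ligase BirA from the *Rosa26* locus. In the 3 Nc1Bio libraries, labelled as NFATc1 overexpression, the mice carried BirA and, in addition, 1 copy of a bacterial artificial chromosome (BAC) that holds the whole *Nfatc1* locus with a biotin-tagged NFATc1/A. NFATc1 is a calcium-regulated transcription factor, and the BAC copy is driven by the locus's own promoters. Mice were 4 to 6 weeks old, of C57/B6 background, and matched for age and sex. The study describes these DN thymocytes as freshly isolated. The libraries were made from poly(A)-selected RNA, a step that retains tailed RNA, so a read of a member does not measure its whole mRNA pool. Nothing in the labels says that the libraries came from separate animals, and p-values then measure only the spread between these libraries.

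Libraries held 11845952 to 15393763 unique gene reads, which are reads placed at a single position, and 16690167 to 21858618 total gene reads, which also count reads that fit several places. Levels are given as CPM, the usual depth-scaled read counts, on library sizes adjusted by the trimmed mean of M-values (TMM). *Nfatc1* had 152, 128 and 96.8 unique CPM in BirA and 573, 597 and 551 in Nc1Bio, which edgeR put at 2.19 on the log2 scale (SE 0.16, adjusted p = 0.0141). It was the only gene called by the edgeR quasi-likelihood test among 12224 tested, which is 0.00818% of them. The call was lost without BirA replicate 2 or without any 1 Nc1Bio library, at adjusted p of 0.0618 to 0.141. All 11 DN thymocyte markers were detected, while erythroid markers took 17666 to 97664 unique CPM in all and granulocyte markers 402 to 9588. B lineage markers summed to 138 to 387 unique CPM in BirA and 59.02 to 94.6 in Nc1Bio, and macrophage markers to 53.7 to 196 and 41.5 to 79.5. The 3 co-receptor genes summed to 21.1 to 52.6 unique CPM. In bulk RNA, fewer cells of a type and less RNA per cell cannot be told apart.

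The members' own sequences are shown first, since they set what short reads can tell. Reference transcripts (GENCODE M1) were found for 66 of the 67 members, 52 by Ensembl ID and 14 by symbol. The stem-loop was searched for, by its consensus, in the transcript after the stop codon. It was found in 44 of the 66 transcripts, in 8 variants, and the most frequent variant occurred in 27 members. Some annotated transcripts stop at or just after the stop codon, so a missing match says only that these letters are not in the annotated stretch. *Hist1h2ap*, the member with most reads, has only 26 annotated bases after its stop codon and no match. Because they show the element that sets these mRNAs apart, the stem-loops of a few well-read members of types H2A, H4, H1 and H3 are given with 5 flanking bases where annotated, with the stem-loop in capitals.
Hist3h2a: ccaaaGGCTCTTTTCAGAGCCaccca
Hist1h4i: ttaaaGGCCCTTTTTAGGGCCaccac
Hist1h1c: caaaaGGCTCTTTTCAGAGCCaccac
Hist1h2ag: acaaaGGCTCTTTTCAGAGCCacct
Hist1h3c: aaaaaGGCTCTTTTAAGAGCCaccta
The annotated transcript of *Hist1h2ag* ended 4 bases after the stem-loop, while that of *Hist1h1c* ran on for 839 bases. The polyadenylation hexamer AATAAA, searched on the sense strand after the stem-loop or, where none was found, after the stop codon, was present in 17 of the 66 transcripts.

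Each transcript was then divided into stretches of 49 bases, the length of the trimmed reads, and compared with all protein-coding transcripts on both strands. In the median member, 55.3% of the stretches occurred in no other gene's transcript. The median was 97.8% in H1, 39.5% in H2A, 51.3% in H2B, 50.0% in H3 and 56.9% in H4, so the linker histones were the most distinct in sequence and the H2A genes the least. In all, 6 members had no stretch of their own, among them *Hist1h2ap* and *Hist1h2ao*, whose 519-base reference transcripts were identical, and the pair *Hist2h2aa1* and *Hist2h2aa2*. Unique reads were 92.0% of total reads over the H1 genes, 77.9% over H2B, 58.6% over H4, 32.7% over H3 and 14.9% over H2A, against 71.1% over all genes. H1 was thus highest and H2A lowest in both measures, while H2B and H4 changed places. The read share is pooled within a type, and *Hist1h2ap* held 51267 of the 55610 total H2A reads. The H2A share is thus largely that of this gene. Across the 30 members with at least 1 total CPM and a reference transcript, the share of distinct stretches and the share of unique reads had a Spearman rho of 0.82 and a Pearson r of 0.86, given as a description across genes that share libraries and near-identical sequence. *Hist3h2a* and *Hist1h4b* lay away from this relation, with 65.96% and 56.9% of distinct stretches but no unique read in any library. Each of these overlaps another annotated gene, *Trim17* and *4930558J22Rik*. *Hist1h2ap* lay off the relation the other way, with no distinct stretch but 7573 unique reads, 14.8% of its total. It and *Hist1h2ao* were matched by symbol, and the counted genes have 482 and 480 exonic bases. Their reference transcripts may thus differ from the sequences the reads were aligned to. In all, 24 members were overlapped by another annotated gene, including all 18 H2A genes, and whether strand was used in counting is not stated, so reads of members and of the overlapping genes may not be told apart.

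**Figure D1:**
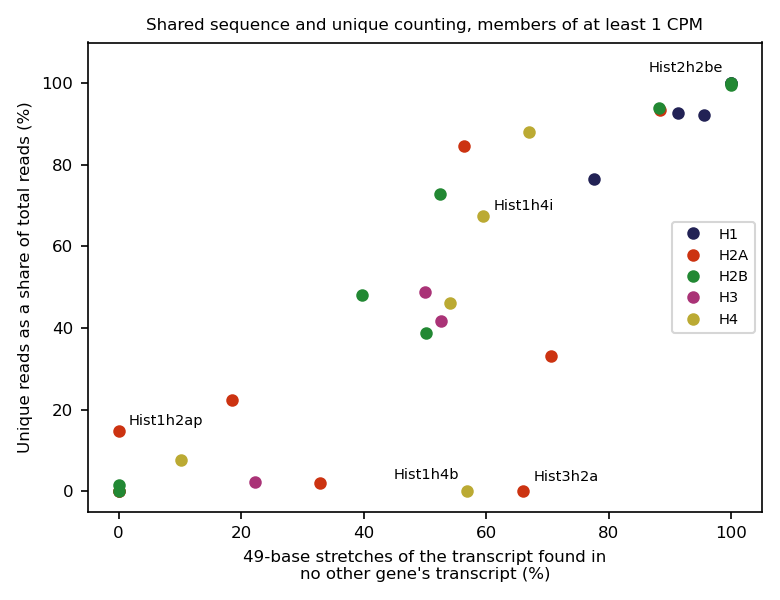
Each point is 1 of the 30 members with at least 1 total CPM and a reference transcript, coloured by histone type. The x axis gives the percentage of its 49-base stretches found in no other gene's transcript and the y axis its unique reads as a percentage of its total reads over all libraries. *Hist1h2ap* sits at 0% and 14.8%, while *Hist3h2a* and *Hist1h4b* lie at 0% on the y axis.

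Over all libraries together, a single gene, *Hist1h2ap*, took most of the members' total reads. This H2A gene (ENSMUSG00000094777, chromosome 13, 21833026 to 21833507, minus strand, GRCm38) had 10505, 2199 and 10702 total reads in BirA and 8699, 14199 and 4963 in Nc1Bio. On the CPM scale its total reads came to 540, 100 and 529 in BirA and 515, 770 and 273 in Nc1Bio. They made up 46.1% to 86.4% of the members' total reads in a library. BirA replicate 2 was the lowest library and Nc1Bio replicate 2 the highest, 7.67 times apart, and the groups overlapped. Per kilobase of exon the gene stood at 943 CPM, against 19.9 for *Hist1h4i*, the next member, 8.67 for *Hist3h2a* and 7.22 for *Hist1h2bc*. Its level was 390 ± 251 total CPM in BirA (SD, n = 3) and 519 ± 249 in Nc1Bio (SD, n = 3), with a log2 fold change of 0.41 by edgeR (SE 0.61, adjusted p = 0.822). In unique reads it had 116, 20.9 and 110 CPM in BirA and 87.7, 174 and 54.5 in Nc1Bio, so the same libraries were low and high in both columns. Its share of the members' unique reads was lower, at 20.4% to 66.6% in a library. The log2 fold change there was 0.36 (SE 0.62), and it changed sign without BirA replicate 2 (-0.093) or without Nc1Bio replicate 2 (-0.21).

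Other readings of the 6 libraries were set beside this spread. The summed unique CPM of the 9 granulocyte markers, all of them detected, was 498, 9588 and 481 in BirA and 402, 3009 and 5788 in Nc1Bio. The libraries with least *Hist1h2ap*, BirA replicate 2 and Nc1Bio replicate 3, were thus the ones with most granulocyte marker reads, while Nc1Bio replicate 2, whose granulocyte marker reads were above those of the remaining 3 libraries, had the most *Hist1h2ap*. The 8 erythroid markers summed to 216810, 111660 and 68390 total CPM in BirA and 147530, 61524 and 323410 in Nc1Bio. There Nc1Bio replicate 3 was the highest library and Nc1Bio replicate 2 the lowest, while BirA replicate 2 lay between the others of its group. The part of either list in the spread of *Hist1h2ap* was not tested. The summed unique CPM of the 21 S phase genes was 5861, 6859 and 7274 in BirA and 7837, 7859 and 8412 in Nc1Bio, so BirA replicate 2 lay between the others of its group and Nc1Bio replicate 3 was highest. Single genes differed in this: 2 of the 21, *Dut* and *Cdt1*, were lowest of their group in the same 2 libraries as *Hist1h2ap*. So were 3 of the 11 genes listed as replication-independent histone genes, *H2afx*, *H2afj* and *H2afv*. These genes were chosen after their values were seen. The share of all genes that were lowest in the same libraries was not counted, so no conclusion is drawn from these numbers. *H2afj*, an H2A variant gene, had 95.4, 38.7 and 92.3 unique CPM in BirA and 87.4, 94.2 and 51.4 in Nc1Bio. *H2afx*, which encodes the variant phosphorylated at DNA breaks, had 363, 241 and 411 in BirA and 435, 498 and 345 in Nc1Bio. Of 14 RNAs known to lack a poly(A) tail, 7 had no unique read and 3 no read at all, and the list summed to 2.74, 3.84 and 2.36 unique CPM in BirA and 2.00, 3.49 and 2.16 in Nc1Bio. In total reads that list summed to 26.0, 21.2 and 19.4 CPM in BirA and 16.4, 21.0 and 19.2 in Nc1Bio.

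*Hist1h2ao*, whose reference transcript is the same as that of *Hist1h2ap*, had 27, 7 and 8 total reads in BirA and 32, 20 and 0 in Nc1Bio. Entering each read at every place it fits would give identical transcripts equal counts, and these counts were not equal. Whether the pair is identical in the build used for alignment was not tested. The windows around their RefSeq start sites (GRCm38.p6) also share a run of 200 identical bases. Both windows, 250 bases before to 50 bases after the start, are printed to show the shared stretch, with CCAAT on either strand in capitals. The first is chr13:21833426-21833725 on the minus strand and the second chr13:21810117-21810416 on the plus strand.
Hist1h2ap: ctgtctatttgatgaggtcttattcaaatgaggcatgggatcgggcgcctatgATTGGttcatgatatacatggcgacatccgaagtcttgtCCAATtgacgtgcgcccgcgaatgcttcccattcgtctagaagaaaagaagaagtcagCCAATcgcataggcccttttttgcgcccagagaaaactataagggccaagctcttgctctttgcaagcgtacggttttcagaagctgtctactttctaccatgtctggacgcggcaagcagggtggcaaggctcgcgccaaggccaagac
Hist1h2ao: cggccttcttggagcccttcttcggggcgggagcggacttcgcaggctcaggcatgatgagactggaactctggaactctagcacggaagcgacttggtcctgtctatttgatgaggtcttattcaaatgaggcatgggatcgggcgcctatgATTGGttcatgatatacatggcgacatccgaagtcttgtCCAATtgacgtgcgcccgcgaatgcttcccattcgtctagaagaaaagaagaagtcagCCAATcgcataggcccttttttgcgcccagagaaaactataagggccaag
The start of the *Hist1h2ap* window equals position 101 onwards of the *Hist1h2ao* window. The run of 200 bases thus begins and ends at window edges, so the shared stretch may extend further. Promoter windows of the same length were matched for 62 members. CCAAT on either strand was present in 53 of them (85.5%) against 37.9% of the windows of 27025 genes, and in 3 of the 12 H4 windows against all windows of H1, H2A, H2B and H3. TATAAA on either strand was present in 35 of the 62 (56.5%) against 14.2% of all windows. The octamer ATTTGCAT was found in 7 of 18 H2A and 7 of 16 H2B windows and in no H1, H3 or H4 window, against 1.75% of all windows. H2A and H2B genes often lie head to head around a shared promoter region. These matches describe the letters of the windows and are not binding sites.

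**Figure D2:**
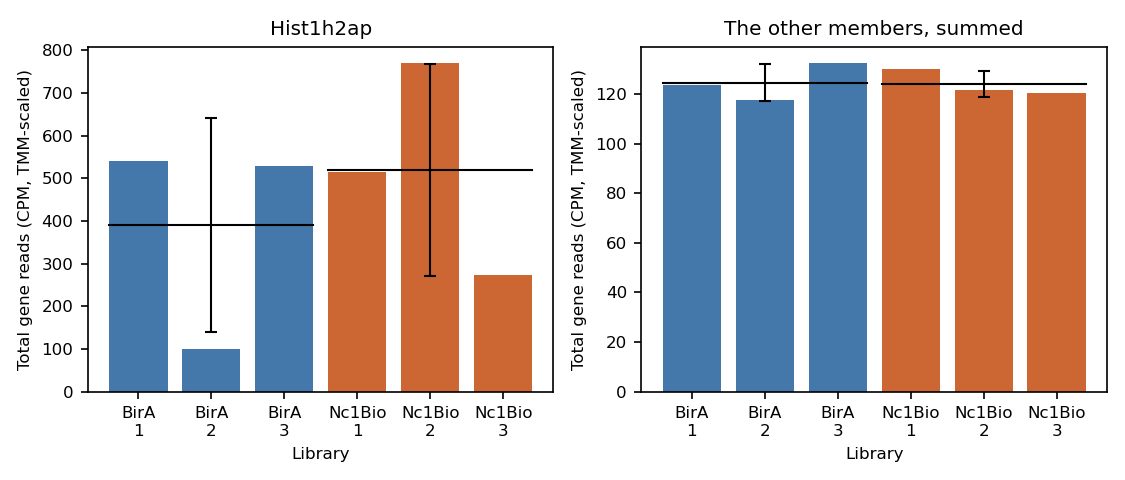
Bars give total gene reads in CPM of each library for *Hist1h2ap* on the left and for the other 66 members summed on the right, each on its own axis from 0. Black lines and error bars are the group mean and SD (n = 3). *Hist1h2ap* ran from 100 to 770 CPM, and the other members together from 118 to 132 CPM.

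The other 66 members summed to similar levels in both genotypes, and the sum was given no test. Their summed total CPM was 124, 118 and 132 in BirA and 130, 122 and 120 in Nc1Bio, or 124 ± 7.44 (SD, n = 3) against 124 ± 5.21 (SD, n = 3), a log2 ratio of -0.0055. In unique reads the sums were 92.8, 81.7 and 98.03 in BirA and 97.9, 87.5 and 102 in Nc1Bio. With *Hist1h2ap* the sum of all 67 was 515 ± 257 total CPM in BirA (SD, n = 3) and 643 ± 249 in Nc1Bio (SD, n = 3), a log2 ratio of 0.32. That difference was within the spread of the libraries and came to -0.044 without BirA replicate 2 and to 0.012 without Nc1Bio replicate 2.

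By histone type, no summed level set the genotypes apart, and the groups overlapped in every type. The H1 genes summed to 14.8, 14.1 and 14.9 total CPM in BirA and 21.5, 10.8 and 16.8 in Nc1Bio, with the Nc1Bio libraries spread on both sides of a tight BirA group. The H2A genes without *Hist1h2ap* summed to 36.8, 46.1 and 39.9 in BirA and 35.5, 41.2 and 24.8 in Nc1Bio. In BirA replicate 2 this held 25.2 of *Hist3h2a*, which overlaps *Trim17* and has no unique read, and 11.5 of *Hist1h2ah*. In unique reads the same genes summed to 11.2, 5.31 and 8.06 CPM in BirA and 9.49, 9.94 and 6.71 in Nc1Bio. There BirA replicate 2 was the lowest, and the log2 ratio was 0.090, against -0.27 in total reads. The H2B genes summed to 33.2, 36.4 and 39.8 total CPM in BirA and 30.4, 34.8 and 45.1 in Nc1Bio. The H3 genes were the least read, at 11.1, 6.89 and 10.9 in BirA and 13.6, 11.6 and 5.44 in Nc1Bio. The H4 genes summed to 27.7, 14.2 and 26.8 in BirA and 28.9, 23.1 and 28.2 in Nc1Bio, with BirA replicate 2 apart from the rest. That library had 6.66 total CPM of *Hist1h4i*, the H4 gene with most reads, against 14.8 to 18.2 in the other 5. In H3 the lowest libraries were again BirA replicate 2 and Nc1Bio replicate 3.

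**Figure D3:**
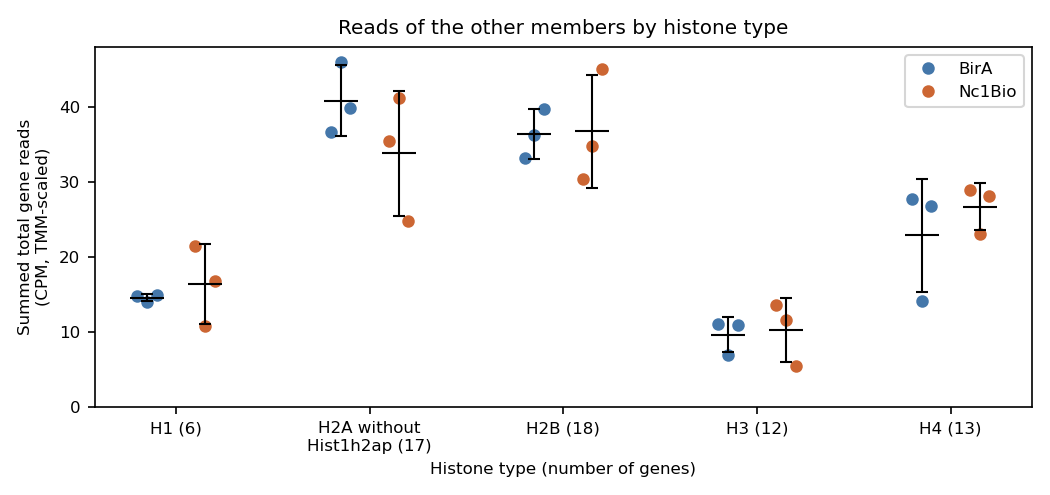
Points are libraries, and the y axis is the summed total gene reads in CPM of the H1, H2A, H2B, H3 and H4 members, with *Hist1h2ap* left out of H2A. Black bars are the group mean and SD (n = 3), and the groups overlap in each of the 5 types. The H2A sum includes *Hist3h2a*, at 13.9 to 25.2 CPM.

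Members were also split by annotated transcript form, a grouping chosen after their values had been seen and given without a test. The 17 members with AATAAA summed to 46.4, 45.6 and 48.8 total CPM in BirA and 43.9, 44.9 and 55.4 in Nc1Bio, so the highest library was 1.26 times the lowest. The 48 members without it, *Hist1h2ap* left out, summed to 76.4, 71.0 and 83.2 in BirA and 86.1, 76.4 and 64.8 in Nc1Bio. This was 1.33 times from lowest to highest, so in total reads the spread hardly differed by this split. In unique reads the spread was 1.24 times with AATAAA and 1.77 times without. In that second set BirA replicate 2 was the lowest by unique reads and Nc1Bio replicate 1 the highest. By length the spread in total reads was wider in the 2 classes of up to 1000 exonic bases than in the longest class. The 35 members with up to 600 exonic bases, other than *Hist1h2ap*, summed to 35.1, 28.8 and 34.3 in BirA and 38.6, 30.6 and 20.3 in Nc1Bio, 1.90 times from lowest to highest. The 13 members with over 600 and up to 1000 exonic bases summed to 31.8, 17.8 and 30.6 in BirA and 34.5, 27.7 and 32.5 in Nc1Bio, 1.94 times from lowest to highest, with BirA replicate 2 lowest. Among these, *Hist1h4i* had 6.66 CPM in BirA replicate 2 and 14.85 to 18.2 in the other libraries. For the 18 longer members the highest library was 1.25 times the lowest, and BirA replicate 2 was the highest at 71.0. Of this, 25.2 came from *Hist3h2a*, which overlaps *Trim17* and has no unique read. By unique reads Nc1Bio replicate 3 was the highest for these members at 57.8 CPM, and BirA replicate 2 had 56.2. Of the 22 such short members with enough total reads to be tested, 13 had their lowest BirA level in replicate 2 and 14 their lowest Nc1Bio level in replicate 3. Of the 22 longer ones these numbers were 10 and 5. The same shares over all genes were not counted. *Hist1h2ag*, a short H2A gene sharing 74.2% of its stretches with *Hist1h2ap*, had 64, 8 and 78 total reads in BirA and 65, 68 and 13 in Nc1Bio. Its low libraries were those of *Hist1h2ap*.

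Near-identical copies divided their reads in proportions that differed between libraries. *Hist2h2aa1* had 105, 0 and 25 total reads in BirA and 31, 11 and 16 in Nc1Bio, while its identical copy *Hist2h2aa2* had 18, 59 and 96 in BirA and 56, 80 and 47 in Nc1Bio. BirA replicate 1 placed most of the pair's reads in *Hist2h2aa1* and the other 5 libraries in *Hist2h2aa2*, so the pair is better read by its sum, which was 123, 59 and 121 reads in BirA and 87, 91 and 63 in Nc1Bio. *Hist1h2ah*, an H2A gene sharing 54.5% of its stretches with *Hist1h2ap*, had 251 total reads in BirA replicate 2 and 0 to 16 in each other library, and 2.12% of its reads were unique.

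The main question was whether the Nc1Bio genotype changed histone gene expression. Of the 67 members, 23 had enough unique reads to be tested, and none was called in either direction by the edgeR quasi-likelihood test, against a background of 0.00818% of all genes. None had an unadjusted edgeR p under 0.05, against 12.0% of all genes tested. By total gene reads 45 members were tested and none was called by edgeR, against 1 call in 13095 genes (0.00764%). None of the 45 had an unadjusted edgeR p under 0.05, against 11.5% of those genes. DESeq2, which called 2.72% of the 12224 genes, called no member among the 15 to which it gave an adjusted p, and limma-voom called none of the 23. The members split evenly: 12 were higher and 11 lower in Nc1Bio by unique reads, with a median log2 fold change of 0.035 against -0.0026 over all genes tested. By total reads 24 were higher and 21 lower, with a median of 0.017. The groups did not overlap for 2 of the 23 members by unique reads, against 18.4% of all genes tested, and for 3 of the 45 by total reads, against 18.4%.

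The members were measured with less precision than most genes. Their median SE was 0.58 on the log2 scale by unique reads, against 0.18 over all genes tested, and 16 of the 23 had a fold change smaller than its SE. Their median coefficient of variation between libraries of a group was 39.0% in BirA and 48.8% in Nc1Bio, against 14.6% and 13.7% over all genes tested. The smallest SE were those of *Hist2h2be* at 0.19 and *Hist1h1c* at 0.20, while *Hist1h2ap*, with the most unique reads, had 0.62.

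Among the linker histones, *Hist1h1a* had the lowest adjusted p of any member by unique reads. It had 7, 20 and 18 unique reads in BirA and 68, 9 and 44 in Nc1Bio, or 1.01 ± 0.44 against 3.25 ± 2.49 CPM (SD, n = 3 each). In this gene 2 Nc1Bio libraries were above all BirA libraries and the third was inside their range. The log2 fold change was 1.67 (SE 0.77, edgeR adjusted p = 0.448). DESeq2 gave this gene an unadjusted p of 0.0378 by unique and 0.0471 by total reads. After adjustment the DESeq2 values were 0.330 and 0.369. *Hist1h1c*, the most abundant H1 transcript, whose stem-loop is printed above, was even across libraries at 13.1, 11.5 and 11.2 unique CPM in BirA and 13.2, 9.71 and 12.6 in Nc1Bio, with a log2 fold change of -0.010 (SE 0.20). The remaining linker genes tested were *Hist1h1b* at -0.22 (SE 0.60), *Hist1h1d* at -0.097 (SE 0.51) and *Hist1h1e* at 0.062 (SE 0.66). *Hist1h1t*, the testis linker histone, was not tested.

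Among the H2B genes, *Hist2h2be* and *Hist1h2bc* were the most read. *Hist2h2be*, all of whose stretches are distinct, had 17.8, 23.3 and 21.5 unique CPM in BirA and 16.1, 21.7 and 15.9 in Nc1Bio, a log2 fold change of -0.22 (SE 0.19). *Hist1h2bc* had 7.22, 7.17 and 6.81 in BirA and 6.33, 7.66 and 15.9 in Nc1Bio. Its log2 fold change of 0.50 (SE 0.36) came from Nc1Bio replicate 3 and was -0.012 without that library. *Hist1h2bg* had 13, 14 and 14 unique reads in BirA and 3, 5 and 7 in Nc1Bio, with no overlap, and edgeR gave it a log2 fold change of -1.24 with an SE of 0.58 (adjusted p = 0.449). This was the largest negative value among the 23. The other 5 tested H2B genes, *Hist1h2be*, *Hist1h2bh*, *Hist1h2bj*, *Hist1h2bm* and *Hist3h2ba*, lay between -0.12 and 0.053, each closer to 0 than its SE.

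The H2A, H3 and H4 genes had few unique reads apart from *Hist1h2ap* and *Hist1h4i*. *Hist1h4i* had 15.7, 6.34 and 14.0 unique CPM in BirA and 14.99, 14.9 and 16.5 in Nc1Bio, a log2 fold change of 0.37 (SE 0.32), with BirA replicate 2 the single low library. *Hist1h4h* had 6, 9 and 8 unique reads in BirA and 9, 17 and 19 in Nc1Bio. On the CPM scale these were 0.43, 0.58 and 0.56 against 0.75, 1.29 and 1.47, so the groups did not overlap, and the log2 fold change was 1.15 (SE 0.55, edgeR adjusted p = 0.456). By total reads its log2 fold change was 1.07 (SE 0.47, edgeR adjusted p = 0.439), the lowest adjusted p of the 45 members tested there. The third tested H4 gene, *Hist1h4d*, stood at 0.22 (SE 0.53). The tested H3 genes were *Hist1h3c* at 0.67 (SE 0.64) and *Hist1h3a* at -0.065 (SE 0.58). The tested H2A genes other than *Hist1h2ap* were *Hist1h2ag* at 0.43 (SE 0.78), *Hist1h2ae* at 0.25 (SE 0.61), *Hist1h2ac* at -0.11 (SE 0.36) and *Hist1h2ak* at -0.42 (SE 1.05).

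**Figure D4:**
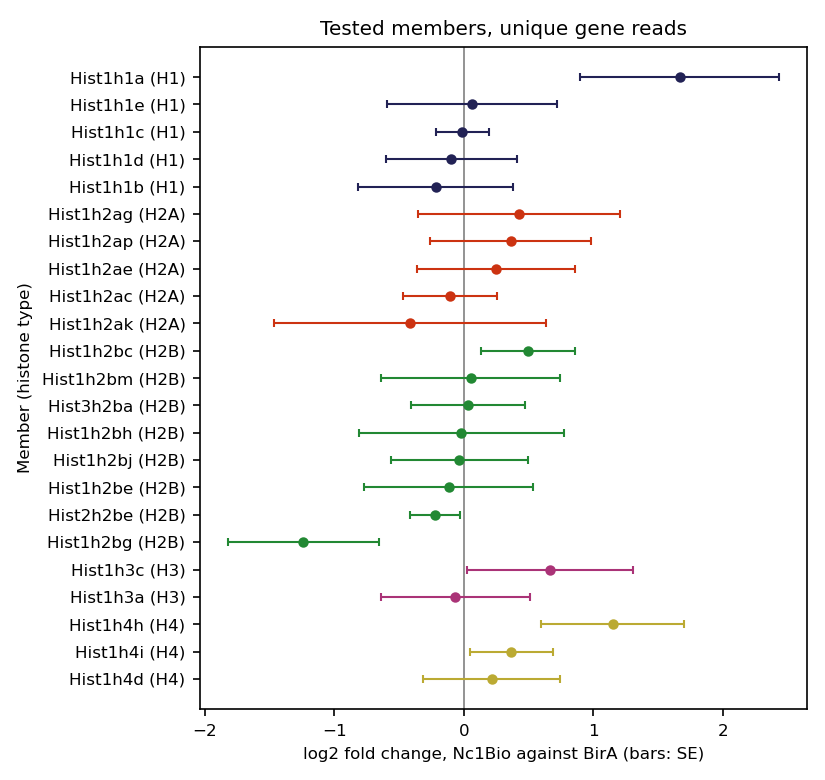
Points are the log2 fold changes of the 23 tested members, Nc1Bio against BirA by unique gene reads, coloured by histone type, and bars are 1 SE. Values run from -1.24 for *Hist1h2bg* to 1.67 for *Hist1h1a*, and none passed the adjusted p of 0.05.

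Of the 44 members that could not be tested by unique reads, the 10 with most total reads were *Hist3h2a*, *Hist2h2aa2*, *Hist1h2ah*, *Hist1h4b*, *Hist2h2aa1*, *Hist1h3h*, *Hist1h2bq*, *Hist1h2ai*, *Hist1h2br* and *Hist1h4m*. *Hist3h2a* had 13.9, 25.2 and 20.9 total CPM in BirA and 14.3, 22.0 and 15.4 in Nc1Bio, a log2 fold change of -0.21 (SE 0.26), and the table cannot separate its reads from those of *Trim17* on the same strand. *Hist1h4m* had 16, 0 and 12 total reads in BirA and 40, 19 and 30 in Nc1Bio, without overlap. At 1.83 on the log2 scale (SE 1.04, edgeR adjusted p = 0.534) it was the largest of the 45. Its neighbour *Hist1h4n*, which shares 83.2% of its stretches with *Hist1h4m*, had 14, 25 and 4 reads in BirA and 14, 0 and 0 in Nc1Bio. At -1.32 (SE 1.42) it was the lowest of the 45. Only 10.2% of the stretches of *Hist1h4m* and 14.4% of those of *Hist1h4n* are distinct. Neither count is thus well read alone, and their sum was not tested. Of the others, *Hist1h4b*, *Hist1h3h*, *Hist1h2bq*, *Hist1h2ai*, *Hist2h2aa1* and *Hist2h2aa2* lay between -0.999 and 0.29 and *Hist1h2br* at 0.59, all below their SE, while *Hist1h2ah* did not pass the count filter. No read at all was counted in any library for 4 members, *Hist2h2ab*, *Hist2h3c1*, *Hist1h2ba* and *Hist1h2aa*. A count of 0 allows up to 3 reads, or 0.137 to 0.178 total CPM per library, and covers counting error only.

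The genes that work with these histones were read from the same fit, by unique reads. None of them was called, and the counts of higher and lower genes are descriptions. All 21 S phase genes were higher in Nc1Bio, by 0.18 to 0.41 on the log2 scale, with a median of 0.25, and 8 had an unadjusted p under 0.05, which 4.31% of all genes tested had in the higher direction. Among them *Uhrf1*, which reads hemimethylated DNA at replication forks, stood at 0.41 (SE 0.10, edgeR adjusted p = 0.236), *Mcm5*, of the replicative helicase, at 0.33 (SE 0.10), *Rrm2*, of ribonucleotide reductase, at 0.34 (SE 0.11) and *E2f1*, a transcription factor of S phase entry, at 0.40 (SE 0.14). All 15 G2 and mitosis genes were also higher, with a median of 0.24, and 4 had an unadjusted p under 0.05, again beside 4.31% of all genes. *Cdc20*, an activator of the anaphase-promoting complex, stood at 0.42 (SE 0.10), *Aurka*, a mitotic kinase, at 0.35 (SE 0.10), *Ccnb2* at 0.26 (SE 0.10) and *Ccna2* at 0.31 (SE 0.12). Beside these medians, that of the 23 histone members was 0.035. The difference between the lists was not tested.

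Factors of histone mRNA maturation and decay showed no common direction, with 12 higher and 7 lower of 19 tested and a median of 0.039. *Slbp*, whose product binds the stem-loop and which also stands in the S phase list, had 156 ± 13.6 unique CPM in BirA and 183 ± 13.2 in Nc1Bio (SD, n = 3 each), at 0.23 (SE 0.10, edgeR adjusted p = 0.444). *Eri1*, a nuclease that trims histone mRNA ends, stood at 0.29 (SE 0.14), *Ncbp2*, of the cap-binding complex, at 0.20 (SE 0.090) and *Tut7*, a uridyltransferase, at -0.25 (SE 0.11). *Npat*, the activator of histone gene transcription, stood at -0.13 (SE 0.14). Of the 17 histone chaperone genes 13 were higher and 4 lower, with a median of 0.18. Of these, 2, both higher, had an unadjusted edgeR p under 0.05, beside 4.31% of all genes in that direction. *Ssrp1*, of the FACT complex, stood at 0.23 (SE 0.10), *Ipo4*, an importin for histones, at 0.33 (SE 0.14), *Chaf1a*, of chromatin assembly factor 1, at 0.20 (SE 0.092) and *Nap1l1* at 0.23 (SE 0.11).

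The 11 genes listed as replication-independent histone genes, whose mRNAs are for the most part polyadenylated, were 10 higher and 1 lower, with a median of 0.096. *Cenpa*, the centromeric H3 variant made in G2, stood at 0.39 (SE 0.12, edgeR adjusted p = 0.303). *H1f0*, the linker histone of cells that leave the cycle, stood at -0.76 (SE 0.30, edgeR adjusted p = 0.392), and these 2 of the 11 had an unadjusted p under 0.05, beside 12.0% of all genes in either direction. *H2afy2*, a macroH2A gene, stood at 1.14 (SE 0.56) and *H2afz*, the H2A.Z gene, at 0.22 (SE 0.12). Together the list summed to 2313, 2325 and 2846 unique CPM in BirA and 2630, 2682 and 2665 in Nc1Bio. The 67 replication-dependent members summed to 209, 103 and 208 and to 186, 262 and 157 in the same libraries. In this poly(A)-selected RNA the 11 listed genes thus gave most of the unique histone reads. Of the 2 tested RNAs without a tail, *Rn7sk*, the 7SK RNA, stood at -0.40 (SE 0.58) and *Rpph1*, of ribonuclease P, at 0.031 (SE 0.62).

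**Figure D5:**
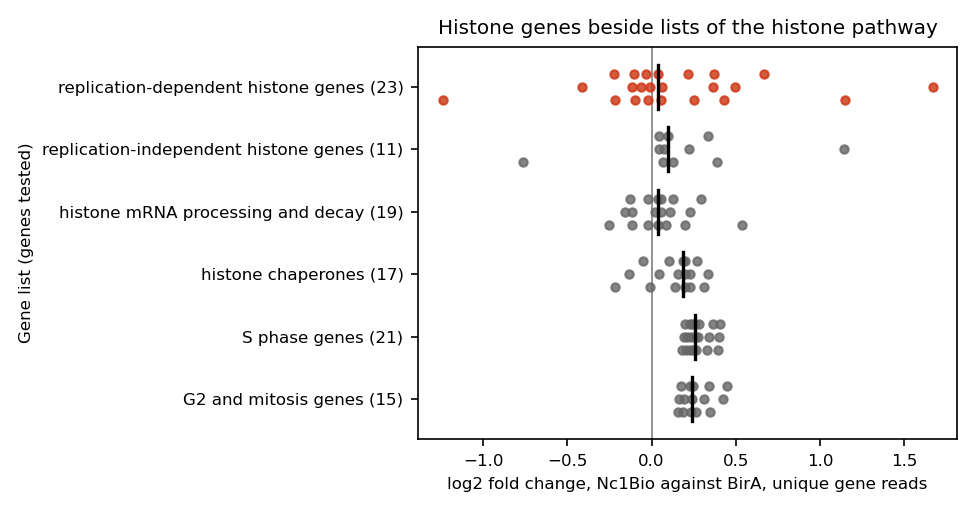
Each point is the log2 fold change of a tested gene, Nc1Bio against BirA by unique gene reads, with replication-dependent histone genes in red and 5 other lists in grey. Vertical black bars are list medians, which run from 0.035 for the replication-dependent histone genes to 0.25 for the S phase genes.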

How the data were processed

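The deposited tables hold, per the file headers, whole-number counts per gene, in separate columns for gene, exon and intron reads, each as unique and as total reads, one table for each library. The authors selected poly(A) RNA, trimmed single-end reads and aligned them with STAR. The study's methods name featureCounts for counting, but the columns are not those of its usual output, so which program wrote these tables is unsure, and their use of strand is not stated. RPKM and TPM columns were not used. The genome build is GRCm38, per the submitters' processing notes.

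Unique gene reads passing filterByExpr (12224 of 41457 genes) were scaled by TMM and tested with edgeR 4.0.16 (R 4.3.3) by the quasi-likelihood test, genotype as the single term, p-values adjusted by Benjamini-Hochberg over all genes tested and calls at 0.05. The SE is the log2 fold change divided by the square root of F. Total gene reads (13095 genes) were fitted in the same way. DESeq2 1.42.0, limma-voom (limma 3.58.1), RLE scaling, 2 other filters, exon reads, the threshold of the study, a replicate block and leaving out each library were alternatives. DESeq2 on total gene reads, DESeq2 at the threshold of the study and sums without *Hist1h2ap* were added after seeing the data. Sums over members were given no test. The steps were tested on simulated data.

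The members and lists were chosen with earlier results of these data known. Named were *Nfatc1*, every member tested by unique reads, the 10 other members of highest total CPM, the 5 members of lowest p and up to 4 genes by p of each histone pathway list. Genes named outside this rule, such as *Npat*, *Hist1h4n*, *Hist1h2ao* and the 4 members without reads, were chosen after their values were seen. No library was a duplicate of another of its group (chi-square of their counts over genes, divided by its degrees of freedom, at least 25.4). Depth was 11845952 to 15393763 unique gene reads per library. Transcript sequences came from GENCODE M1, which is on another build and was used by name and ID only, and promoter windows from RefSeq (GRCm38.p6).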

Additional observations from a re-analysis of the deposited data

How the results depend on the processing

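No histone member was called in either direction under any of the 18 alternatives run. For all genes, edgeR called 1 higher and 0 lower, against 11 and 145 with no filter on low counts, 56 and 277 by DESeq2, 60 and 290 by DESeq2 on total gene reads, 13 and 158 by DESeq2 at the threshold of the study (log2 change over 0.5 in size at an adjusted p below 0.01) and 0 higher by edgeR at that threshold. Leaving out 1 library gave 0 to 1 higher and 0 to 1 lower. The cause of these differences was not tested. *Nfatc1* kept its direction, at 2.03 to 2.35 with 1 library left out. The members' median log2 fold change was 0.035, and ran from -0.023 to 0.29 with 1 library left out, where BirA replicate 3 gave the highest value and Nc1Bio replicate 2 gave 0.24. The log2 ratio of summed unique reads, 0.22, ran from -0.049 to 0.38 with 1 library left out and was 0.077 without *Hist1h2ap*.

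Replicate numbers gave no clear pairing of the libraries. Deviations from the group means correlated at 0.33, 0.12 and -0.099 in same-numbered libraries and at -0.39 to 0.25 in differently numbered ones. With the replicate number as a block, no member was called, and all genes gave 1 higher and 1 lower call. Under the block, *Hist3h2ba* came to -0.025 and *Hist1h1e* to -0.032.

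Most members had fold changes below their SE, and signs changed between settings: 49 of 362 values, in 17 of the 23 tested members, changed sign. By limma-voom *Hist3h2ba* came to -0.016 and *Hist1h1e* to -0.12. By total gene reads, total exon reads and DESeq2 on total reads, *Hist1h2bm* came to -0.015, -0.017 and -0.012, *Hist1h2bh* to 0.33, 0.32 and 0.34 and *Hist1h1c* to 0.015, 0.011 and 0.014. *Hist1h2be* came to 0.21 by unique and 0.17 by total exon reads. With 1 library left out, *Hist1h1b* ran from -0.95 to 0.14, *Hist1h1c* ran from -0.091 to 0.12, *Hist1h1d* ran from -0.30 to 0.40, *Hist1h1e* ran from -0.38 to 0.49, *Hist1h2ac* ran from -0.19 to 0.024, *Hist1h2ae* ran from -0.12 to 1.16, *Hist1h2ag* ran from -0.19 to 1.09, *Hist1h2ak* ran from -1.13 to 0.14, *Hist1h2ap* ran from -0.21 to 0.69, *Hist1h2bc* ran from -0.012 to 0.74, *Hist1h2be* ran from -0.46 to 0.34, *Hist1h2bh* ran from -1.09 to 0.44, *Hist1h2bj* ran from -0.29 to 0.17, *Hist1h2bm* ran from -0.37 to 0.85, *Hist1h3a* ran from -0.31 to 0.39, *Hist1h4d* ran from -0.059 to 0.57, *Hist3h2ba* ran from -0.44 to 0.29. Of the 67 members, 44 had too few unique reads to be tested, while 45 could be tested by total reads.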
